A study of Homo sapiens with 4 samples.

Results

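The genes described here encode splicing factors and the proteins of small nuclear ribonucleoproteins (snRNPs). They are the rows of the deposited expression table whose symbol begins with SRSF, HNRNP, SF3A, SF3B, SNRP (A to G), SNRNP, U2AF, PRPF or LSM in the pattern of the family, without a hyphen in the symbol and without the word pseudogene in the description. In all, 94 of the 50868 rows met this rule, and 196 further rows matched the name pattern but were left out, 194 as named pseudogenes and 2 for a hyphen. The rule itself uses no expression value, but the genes were chosen with earlier results of these data known.

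Nuclear pre-mRNA is spliced by the spliceosome, which is built anew on each intron from the U1, U2, U4, U5 and U6 snRNPs. Each of these particles holds a small RNA and a ring of Sm proteins (or, for U6, LSM proteins), to which particle-specific proteins are added; SF3 and U2AF proteins recognise the branch point and the 3′ splice site, and PRPF proteins act in assembly and catalysis. SR proteins mostly bind exonic enhancers and favour splice-site use, whereas hnRNP proteins coat nascent RNA and often oppose it.

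The cells were KBM5, a human BCR-ABL-positive chronic myeloid leukemia line, and their mRNA was sequenced. The 4 groups were IM-DSF (both agents), IM, DSF and CTR (untreated), with 1 library per group and with no dose or time in the labels. The codes are not spelled out and are read here as imatinib, an inhibitor of the BCR-ABL kinase, for IM and disulfiram for DSF. The study's title asks about joint targeting of the peroxide reductase GPX4 and of BCR-ABL.

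The unit is FPKM, the fragments of a gene divided by its length in kilobases and by the depth of the library in M (1e+06) fragments. The depths recovered from the values were 12.4 M fragments in IM-DSF, 15.8 M in IM, 14.7 M in DSF and 14.5 M in CTR. Mitochondrial genes held 30.1 to 32.6% of the summed FPKM. All 8 myeloid marker genes averaged 1 FPKM or more, and they summed to 2540 FPKM in IM-DSF, 2570 in IM, 2011 in DSF and 1479 in CTR. LYZ, ELANE, PRTN3, AZU1, CSF3R and MPO were higher in IM-DSF than in CTR. SPI1 (52.7 FPKM in IM-DSF, 58.1 in CTR) and CD33 (8.40 in IM-DSF, 8.56 in CTR) were lower. None of the 6 erythroid, 4 B cell, 4 T cell and 4 epithelial or stromal markers reached that average, and GATA1, CD3E, MS4A1 and EPCAM were listed at 0 in every library. The part of the higher myeloid sum in the results below was not tested. Without replicates there is no spread between cultures to set a difference against, so no p-value is given. The 95% interval of a ratio covers counting error only. In bulk RNA, fewer cells of a kind and less RNA per cell cannot be told apart.

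Of the 94 genes, 85 averaged 1 FPKM or more and are compared below, with averages between 2.52 FPKM (LSM12) and 155 FPKM (SNRPB). The other 9 fell short of 1 FPKM. HNRNPCL2, HNRNPCL3, HNRNPCL4, SRSF12 and U2AF1L5 were listed at 0 in every library, HNRNPCL1 did not exceed 0.142 FPKM, and PRPF40B and U2AF1L4 did not exceed 0.850 FPKM. U2AF1, the small subunit of the factor that binds the 3′ splice site, had 0.560 FPKM in IM-DSF, 0.599 in IM, 0.589 in DSF and 0.532 in CTR, against 60.1 to 77.2 FPKM for its large partner U2AF2. The longest open reading frames of U2AF1 and U2AF1L5 were identical over 723 bases, so the deposited level of this pair is uncertain.

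As a group the splicing genes were lower in IM-DSF than in CTR. Their summed level was 2609 FPKM in IM-DSF, 2836 in IM, 3052 in DSF and 3218 in CTR, or 0.940%, 0.986%, 1.07% and 1.16% of all FPKM in that order of libraries. On the scale of log2(FPKM + 1), the median difference of the 85 genes was -0.25 in IM-DSF against CTR, where the median of all 11004 genes past the filter was 0.02. It was -0.13 in IM against CTR (all genes 0.02) and -0.05 in DSF against CTR (all genes 0.00). These 3 comparisons share the CTR library. Against the single agents, the median was -0.09 for IM-DSF against IM (all genes -0.00) and -0.22 for IM-DSF against DSF (all genes 0.01). Values below 0 were found for 66 of the 85 genes in IM-DSF against CTR (47.9% of all genes). They were found for 58 in IM against CTR (46.9%) and 59 in DSF against CTR (50%). In IM-DSF against IM there were 62 (50.3%) and in IM-DSF against DSF 59 (48.3%). Values below 0 were also more frequent among abundant genes in general, as given below.

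A gene is called higher or lower below when the difference is at least 0.5 log2 unit, which is 1.41-fold on the FPKM + 1 scale. In IM-DSF against CTR, 18 of the 85 genes were lower, beside 10.4% of all genes, and 1 was higher, beside 12.2%. In IM against CTR, 5 were lower (5.67% of all genes) and 0 higher (9.38%). In DSF against CTR, 2 were lower (2.81%) and 0 higher (3.49%). IM-DSF against IM gave 4 lower (4.65%) and 0 higher (3.19%), and IM-DSF against DSF gave 8 lower (6.92%) and 2 higher (7.66%). The shares of lower calls are thus near or modestly above the background outside IM-DSF against CTR. Higher calls were rarer than among all genes in each of the 5 comparisons. They were also rarer among abundant genes in general, as given below. By the stricter rule of 1 log2 unit, 2 genes were lower in DSF against CTR (0.573% of all genes), 1 in IM against CTR (0.891%), 2 in IM-DSF against CTR (1.74%) and 0 in IM-DSF against IM (1.04%), while in IM-DSF against DSF 1 was lower (1.05%) and 1 higher (1.33%).

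Abundant genes in general tended to be lower in the treated libraries. In IM-DSF against CTR, the median was -0.19 for the 1299 protein-coding genes that averaged 20 FPKM or more, and 19.9% of them were called lower. Of the splicing genes, 51 were that abundant; their median was -0.34 and 14 were called lower. In IM against CTR the medians were -0.21 for these 51 genes and -0.13 for the 1299, and in DSF against CTR both were -0.05. Values below 0 were found for 68.0% of the 1299 in IM-DSF against CTR and 86.3% of the 51. These shares were 64.4% and 78.4% in IM against CTR, and 62.9% and 76.5% in DSF against CTR. They were 63.5% and 70.6% in IM-DSF against IM, and 67.7% and 78.4% in IM-DSF against DSF. Of the 1299 genes, 76 were called higher in IM-DSF against CTR, 65 in IM against CTR and 28 in DSF against CTR. In IM-DSF against IM 16 were called higher, and in IM-DSF against DSF 49. Of the 51 splicing genes, 1 was called higher in IM-DSF against CTR, 1 in IM-DSF against DSF and 0 in the other comparisons. The part of abundance in the results above and below was not tested.

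The order of the 4 libraries was similar for many of the genes. All 3 treated libraries were below CTR for 47 of the 85 genes (55.3%, against 30.03% of all genes), and all 3 were above CTR for 11 (12.9%, against 33.1%). IM-DSF was the lowest library for 51 genes (60%, against 30.3%). The full order IM-DSF, IM, DSF, CTR from lowest to highest was found for 34 genes (40%, against 13.8%). All 3 treated libraries are set against the same CTR library.

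**Figure D1:**
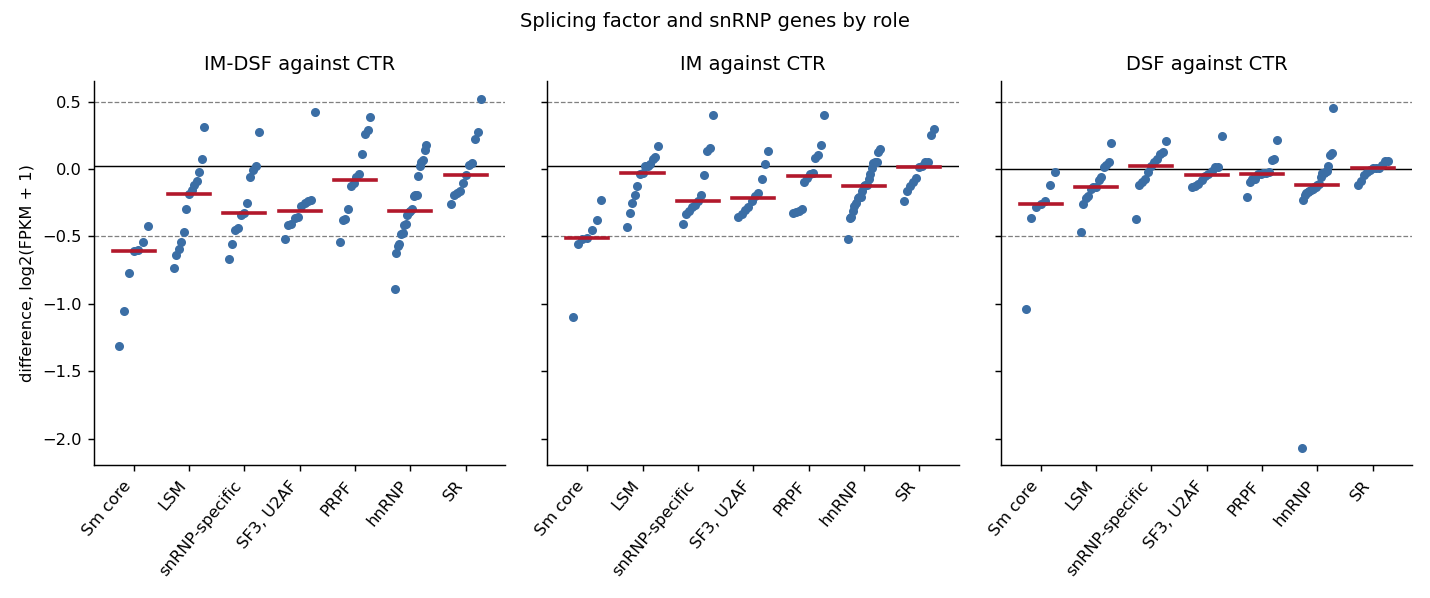
Each point is 1 of the 85 splicing genes, grouped by role on the horizontal axis; the vertical axis is the difference in log2(FPKM + 1) for IM-DSF, IM and DSF against CTR. Red bars are role medians, the solid line is the median of all genes and dashed lines mark 0.5 log2 unit; in IM-DSF the Sm core has the lowest median, -0.61, and the SR proteins the highest, -0.04.

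The plot of differences by role shows where the group's lower values lay. In IM-DSF against CTR the median was -0.61 for the Sm core, -0.33 for the particle-specific snRNP proteins, -0.31 for the SF3 and U2AF proteins, -0.31 for the hnRNP proteins, -0.19 for the LSM proteins, -0.08 for the PRPF proteins and -0.04 for the SR proteins. The Sm core was also the lowest class in IM against CTR (-0.51) and in DSF against CTR (-0.26).

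The Sm core proteins form the ring that encircles the small RNA of U1, U2, U4 and U5. All 7 of these genes were lower in each treated library than in CTR, and their summed level was 278 FPKM in IM-DSF, 337 in IM, 390 in DSF and 461 in CTR. By the 0.5 rule, 6 of 7 were lower in IM-DSF against CTR (10.4% of all genes, 19.9% of abundant protein-coding genes). In IM against CTR 4 of 7 were lower (5.67% of all genes) and in DSF against CTR 1 of 7 (2.81%). SNRPD1, at -0.42, was the one not called in IM-DSF. In IM-DSF against CTR, 4 of 13 LSM, 4 of 21 hnRNP and 2 of 11 particle-specific genes were called lower. So were 1 of 10 SF3 and U2AF genes, 1 of 12 PRPF genes and 0 of 11 SR genes.

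SNRPG, the SmG protein (ENSG00000143977; GRCh38.p14 chromosome 2, 70281362 to 70293771), had 29.7 FPKM in IM-DSF, 52.6 in IM, 63.9 in DSF and 75.4 in CTR. The treated libraries were all below CTR, and IM-DSF was far below the other treated libraries. IM-DSF held 0.394 times the CTR level (0.360 to 0.431 as the 95% interval), the lowest of the 85 genes, and 0.565 times the IM level (0.515 to 0.620). On the log2 scale its IM-DSF difference from CTR of -1.31 was 0.57 below the sum of the IM difference (-0.51) and the DSF difference (-0.24).

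SNRPF, the SmF protein (ENSG00000139343; chromosome 12, 95858928 to 95903828), had 18.3 FPKM in IM-DSF, 26.2 in IM, 32.0 in DSF and 39.0 in CTR. This is the same order as for SNRPG, with ratios to CTR of 0.468 (0.428 to 0.511) in IM-DSF, 0.671 (0.624 to 0.722) in IM and 0.820 (0.763 to 0.879) in DSF. SNRPF overlaps a processed pseudogene, AC090001.2, on its strand, so its value is uncertain. SNRPE, the SmE protein, had 20.9 FPKM in IM-DSF, 22.4 in IM, 29.8 in DSF and 32.4 in CTR. Both IM libraries lay below DSF and CTR, and IM was 0.689 times CTR (0.614 to 0.774). SNRPB, which encodes the SmB proteins and was the most abundant of the genes, had 121 FPKM in IM-DSF, 150 in IM, 173 in DSF and 176 in CTR, and DSF and CTR differed by less than the counting interval (ratio 0.984, 0.937 to 1.03). SNRPB overlaps the gene AL049650.1 on the same strand.

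SNRPD2, the SmD2 protein (ENSG00000125743; chromosome 19, 45687454 to 45692569), departed from this order. It had 33.7 FPKM in IM-DSF, 26.7 in IM, 27.8 in DSF and 58.3 in CTR. All 3 treated libraries held well under the CTR level, and the combination was the highest of them. The ratio to CTR was 0.578 (0.526 to 0.634) in IM-DSF, 0.458 (0.418 to 0.503) in IM and 0.477 (0.434 to 0.524) in DSF, while IM-DSF was 1.26 times IM (1.13 to 1.40). The log2 difference in IM-DSF exceeded the sum of the single-agent differences by 1.37. CTR is the 1 library in which SNRPD2 stood apart, and no further CTR library exists here to set beside it; QPCTL overlaps SNRPD2 on the opposite strand.

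SNRPD1, the direct partner of SmD2, and SNRPD3, the partner of SmB, had closer values. SNRPD1 had 26.5 FPKM in IM-DSF, 26.0 in IM, 29.9 in DSF and 35.9 in CTR. SNRPD3, which overlaps GGT1 on its strand, had 28.1 FPKM in IM-DSF, 33.1 in IM, 33.4 in DSF and 43.2 in CTR. Both were highest in CTR, and SNRPD3 was called lower only in IM-DSF, by 0.60 log2 unit.

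**Figure D2:**
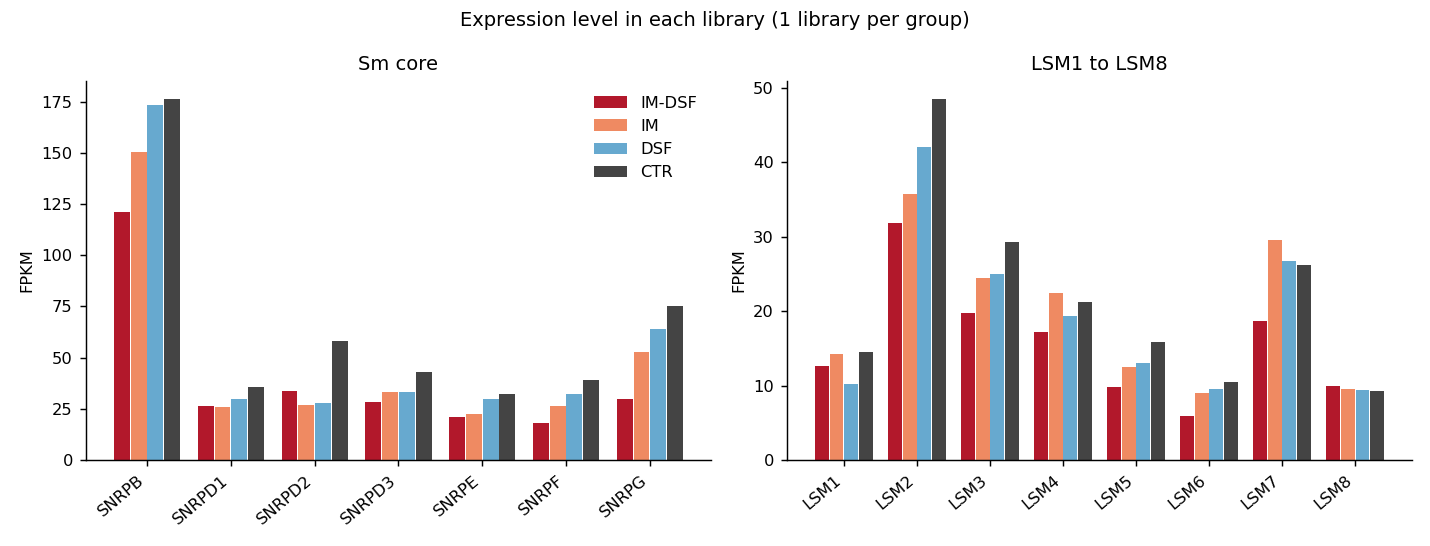
Bars give the FPKM (from 0) of the 7 Sm core genes, left, and of LSM1 to LSM8, right, in the IM-DSF, IM, DSF and CTR libraries, 1 library per group and hence without error bars. CTR is the highest bar for every Sm core gene, and the IM-DSF bar of SNRPG reaches 29.7 FPKM against 75.4 in CTR.

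LSM proteins form related rings: LSM2 to LSM8 bind the end of U6 RNA in the nucleus, and LSM1 to LSM7 take part in mRNA decapping in the cytoplasm. Of the 13 LSM genes, 4 were called lower in IM-DSF against CTR, beside 10.4% of all genes. These were LSM6, LSM5, LSM2 and LSM3, all subunits common to both rings. None was called in IM or in DSF against CTR. LSM6 had 5.92 FPKM in IM-DSF, 9.06 in IM, 9.50 in DSF and 10.5 in CTR, and IM-DSF was 0.653 times IM (0.565 to 0.753). LSM2 had 31.9 FPKM in IM-DSF, 35.8 in IM, 42.1 in DSF and 48.5 in CTR, a more even descent. LSM6 overlaps the transcript AC097372.3 on its strand.

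LSM7, another subunit of both rings, had 18.7 FPKM in IM-DSF, 29.6 in IM, 26.7 in DSF and 26.2 in CTR. Only the combination was low, with 0.631 times the IM level (0.557 to 0.711), and the log2 difference was 0.66 below additivity, the lowest departure of the 85 genes. The subunits that set the rings apart did not follow this: LSM8 (nuclear) had 9.90 FPKM in IM-DSF, 9.49 in IM, 9.46 in DSF and 9.34 in CTR. LSM1 (cytoplasmic) had 12.7 FPKM in IM-DSF, 14.2 in IM, 10.2 in DSF and 14.5 in CTR, lowest in DSF at 0.702 times CTR (0.597 to 0.829). LSM10, a subunit of the U7 snRNP that processes histone pre-mRNA, had 7.73 FPKM in IM-DSF, 8.41 in IM, 9.10 in DSF and 7.85 in CTR, and each ratio's interval to CTR included 1.

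Exon length differed between the classes, and shorter genes in general tended to be lower in IM-DSF against CTR. The Spearman rho of exon length with that difference was 0.27 over the 85 genes. It was 0.17 over 9365 expressed protein-coding genes. The Sm core genes had a median summed exon length of 1795 bases: SNRPB, SNRPE, SNRPD2 and SNRPG are under 2000 bases, and SNRPD3 (2544), SNRPF (3043) and SNRPD1 (4909) are longer. The medians were 3381 bases for the LSM, 3669 for the particle-specific, 4428 for the SF3 and U2AF and 5153 for the PRPF class. The hnRNP class had the longest median, 5923 bases, and a median difference of -0.31 in IM-DSF against CTR. For the SR class these were 4593 bases and -0.04. In IM-DSF against CTR, the 821 expressed protein-coding genes under 2000 bases had a median of -0.15 and 20.7% were called lower; the 3774 genes of 2000 to 5000 bases had -0.03 and 11.9%, and the 4770 longer genes 0.06 and 5.20%. The splicing genes had lower medians in each length class, -0.47 for 13 genes, -0.33 for 35 and -0.13 for 37. The part of length in the Sm core result was not tested.

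**Figure D3:**
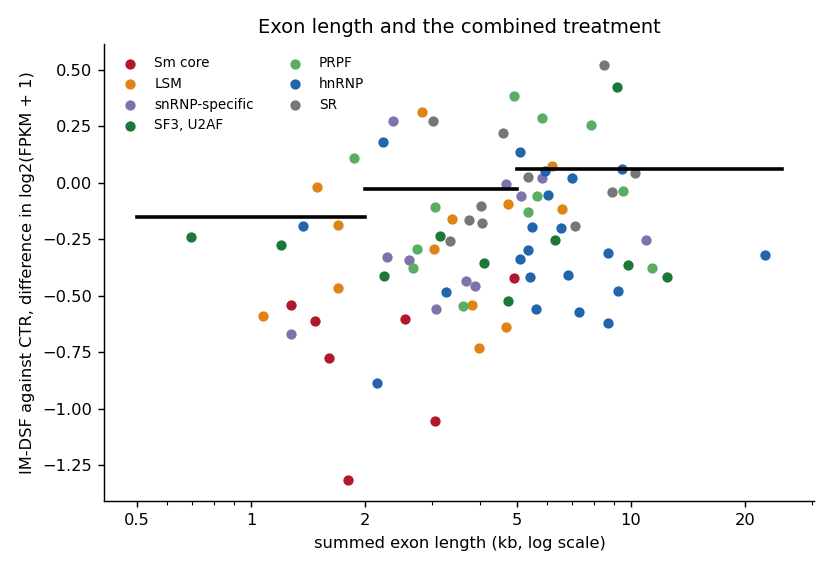
Each point is 1 of the 85 splicing genes, coloured by role, with its summed exon length in kb (log scale) on the horizontal axis and its difference in log2(FPKM + 1) for IM-DSF against CTR on the vertical axis. Black lines are the medians of all expressed protein-coding genes in the same length class, -0.15, -0.03 and 0.06; 12 of the 13 splicing genes under 2 kb lie below 0.

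Among the 11 particle-specific snRNP proteins, 2 were called lower in IM-DSF against CTR (10.4% of all genes) and none in IM or in DSF. SNRPC, the U1 protein that steadies the pairing of U1 RNA with the 5′ splice site (ENSG00000124562; chromosome 6, 34757406 to 34773794), had 81.9 FPKM in IM-DSF, 108 in IM, 129 in DSF and 131 in CTR. The combination was 0.626 times CTR (0.585 to 0.670) and DSF was close to CTR (0.984, 0.930 to 1.04). SNRNP25, a protein of the U11/U12 particle of the minor spliceosome, had 6.16 FPKM in IM-DSF, 7.66 in IM, 9.01 in DSF and 9.54 in CTR.

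SNRPA, which binds a stem-loop of U1 RNA, went the other way. It had 10.3 FPKM in IM-DSF, 11.3 in IM, 9.17 in DSF and 8.30 in CTR, and IM was 1.36 times CTR (1.17 to 1.59), the highest difference of the 85 genes in IM against CTR at 0.40 log2 unit, under the call rule. SNRPB2, which binds U2 RNA and is a relative of SNRPA, had 24.4 FPKM in IM-DSF, 24.5 in IM, 23.8 in DSF and 31.2 in CTR. The 3 treated libraries were alike and all below CTR. In IM-DSF against DSF, 3 of the 11 genes were called lower, beside 6.92% of all genes. SNRPC differed by -0.65. SNRNP40, a U5 protein (-0.56), had 14.2 FPKM in IM-DSF and 21.5 in DSF. SNRPA1, a U2 protein (-0.51), had 5.96 FPKM in IM-DSF and 8.90 in DSF. SNRNP40 overlaps the processed pseudogene AC114495.2 on its strand. The SNRPA1 pseudogene row held 55.6% of the fragments of gene and pseudogene in IM-DSF and 57.8% in DSF, so both values are uncertain.

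The SF3 and U2AF proteins recognise the branch point and the polypyrimidine tract. Of the 10 expressed genes, 9 were below CTR in IM-DSF, beside 47.9% of all genes and 68.0% of abundant protein-coding genes. SF3A3 was called lower, and 1 of 10 is near the 10.4% of all genes. SF3A3, a subunit of SF3a, had 39.3 FPKM in IM-DSF, 45.0 in IM, 53.5 in DSF and 56.8 in CTR, a ratio of 0.691 (0.656 to 0.728) for IM-DSF to CTR. SF3B6, which sits beside the branch-point adenosine, had 109 FPKM in IM-DSF, 115 in IM, 133 in DSF and 132 in CTR. SF3A2, another SF3a subunit, had 15.1 FPKM in IM-DSF, 18.4 in IM, 21.4 in DSF and 17.9 in CTR; it was highest in DSF and lowest in the combination, 0.52 log2 unit below additivity.

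SF3B1, the large SF3b subunit that clamps the branch helix and is recurrently mutated in myelodysplasia (ENSG00000115524; chromosome 2, 197389784 to 197435091), was the exception among the SF3 and U2AF genes. It had 104 FPKM in IM-DSF, 85.2 in IM, 78.3 in DSF and 77.5 in CTR. The combination was 1.35 times CTR (1.31 to 1.38), 1.22 times IM (1.193 to 1.255) and 1.33 times DSF (1.297 to 1.367), while DSF was level with CTR (1.01, 0.983 to 1.04). These differences, 0.29 to 0.42 log2 unit, are under the call rule.

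The PRPF proteins are homologues of yeast pre-mRNA processing factors. Of the 12 expressed genes, 1 was called lower in IM-DSF against CTR (10.4% of all genes) and none in the other comparisons. PRPF4, a U4/U6 protein, had 13.4 FPKM in IM-DSF, 15.8 in IM, 17.1 in DSF and 19.97 in CTR. PRPF19, the ubiquitin ligase of the spliceosome, had 49.7 FPKM in IM-DSF, 49.6 in IM, 64.4 in DSF and 61.1 in CTR, so that the 2 libraries with IM were alike and below the 2 without it. PRPF8, the scaffold of the catalytic core, divided the libraries the same way, with 43.8 FPKM in IM-DSF, 45.3 in IM, 55.5 in DSF and 57.1 in CTR.

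PRPF38B had higher values than CTR in the 2 libraries with IM and PRPF39 in all 3 treated libraries, without a call against CTR. PRPF38B, a relative of the spliceosome activation factor PRPF38A, had 13.2 FPKM in IM-DSF, 14.3 in IM, 10.02 in DSF and 10.6 in CTR, and was 1.35 times CTR in IM (1.24 to 1.47) and 0.945 times CTR in DSF (0.859 to 1.04). PRPF39, a U1-associated protein whose locus holds snoRNA genes, had 6.53 FPKM in IM-DSF, 5.11 in IM, 5.69 in DSF and 4.77 in CTR.

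The hnRNP proteins bind nascent transcripts, and 21 of their 25 genes were compared. In IM-DSF against CTR, 4 were called lower (10.4% of all genes), HNRNPAB, HNRNPR, HNRNPC and HNRNPM, and none higher (12.2%). HNRNPAB, an RNA-binding protein of the nucleus and cytoplasm (ENSG00000197451; chromosome 5, 178204507 to 178211180), had 26.7 FPKM in IM-DSF, 34.8 in IM, 44.2 in DSF and 50.2 in CTR. The descent was steep and ordered, with ratios to CTR of 0.532 (0.486 to 0.581) in IM-DSF, 0.693 (0.642 to 0.748) in IM and 0.880 (0.818 to 0.946) in DSF. PHYKPL overlaps HNRNPAB on the opposite strand.

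HNRNPC, which binds uridine tracts and masks cryptic splice sites, had 19.8 FPKM in IM-DSF, 29.96 in IM, 26.4 in DSF and 29.8 in CTR. The combination was the lowest of the 4 libraries, at 0.660 times IM (0.623 to 0.699). DSF was 0.884 times CTR (0.840 to 0.930), and IM was level with CTR (1.004, 0.957 to 1.05). HNRNPU, a nuclear scaffold protein and the deepest covered of these genes, had 101 FPKM in IM-DSF, 112 in IM, 116 in DSF and 126 in CTR. HNRNPH2, a binder of guanine-rich RNA, had 48.6 FPKM in IM-DSF, 47.5 in IM, 43.4 in DSF and 42.7 in CTR; it overlaps the readthrough gene RPL36A-HNRNPH2, and its highest ratio to CTR was 1.14 (1.05 to 1.23), in IM-DSF.

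HNRNPA1L2, a near-copy of HNRNPA1 on chromosome 13, had the most extreme value of the group in a single library. It had 12.8 FPKM in IM-DSF, 13.5 in IM, 2.76 in DSF and 14.8 in CTR, from about 219, 293, 56 and 294 fragments in that order of libraries. The DSF library alone was low, at 0.187 times CTR (0.139 to 0.251). The same library had the highest value of HNRNPA1, a splicing repressor of nascent RNA, with 46.2 FPKM in IM-DSF, 43.5 in IM, 57.6 in DSF and 41.9 in CTR. The longest open reading frames of HNRNPA1 and HNRNPA1L2 in GENCODE 29 transcripts both span 963 bases and differ at 15 of them, an identity of 98.4%.

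Fragments from sequence this alike can be placed on either gene or on pseudogene rows. HNRNPA1 has 75 such rows, which held 84.6% of the fragments of gene and pseudogenes in IM-DSF, 86.1% in IM, 82.8% in DSF and 87.2% in CTR. When HNRNPA1, HNRNPA1L2 and these pseudogenes were summed, a step chosen after seeing the data, and expressed at the length of HNRNPA1, the family had 303 FPKM in IM-DSF, 316 in IM, 336 in DSF and 332 in CTR. The log2 difference of DSF from CTR was 0.02 for that sum, against 0.45 for HNRNPA1 alone and -2.07 for HNRNPA1L2 alone, and in IM and IM-DSF the sum was below CTR (-0.07 and -0.13) where HNRNPA1 was above (0.05 and 0.14). The DSF values of both genes are therefore uncertain.

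**Figure D4:**
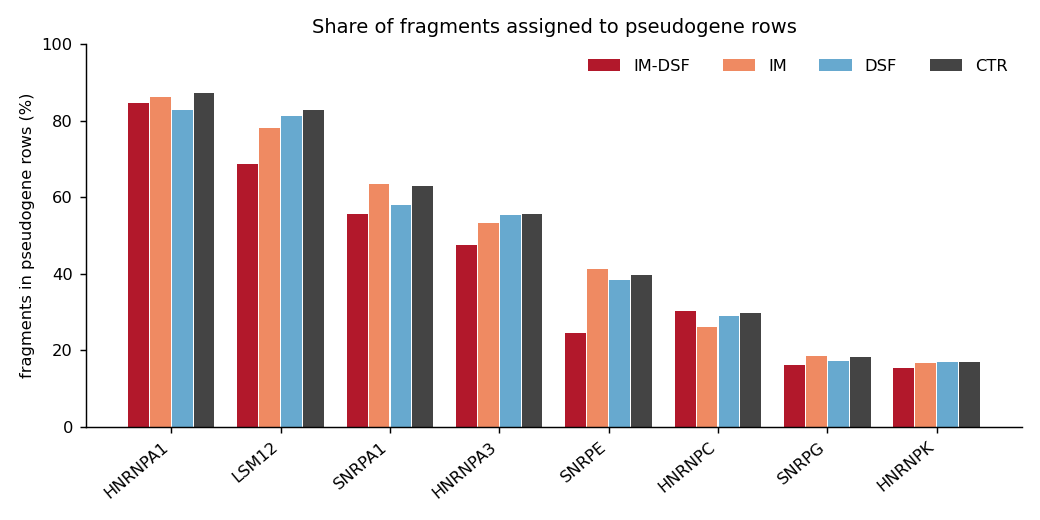
Bars give, for the 8 genes with over 10% of CTR fragments in pseudogene rows, the percentage of the fragments of gene plus named pseudogenes that the authors' table places on the pseudogenes, in the IM-DSF, IM, DSF and CTR libraries. HNRNPA1 and LSM12 reach 87.2% and 82.7% in CTR, and the IM-DSF bar is the lowest of the 4 for LSM12, SNRPA1, HNRNPA3, SNRPE, SNRPG and HNRNPK.

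Pseudogenes bear on other values too. Of the compared genes, 31 have named pseudogene rows, 8 had over 10% of the CTR fragments there and 4 over 50%, as the plot of pseudogene shares shows. LSM12 had 3.07 FPKM in IM-DSF, 2.36 in IM, 2.40 in DSF and 2.27 in CTR, a difference of 0.31 log2 unit in IM-DSF against CTR that became -0.39 with its pseudogene added. SNRPE had 24.5% of its fragments in pseudogene rows in IM-DSF and 39.7% in CTR, and adding them moved its IM-DSF difference from CTR to -0.94, beside -0.61 for the gene alone. Of the SNRPG pseudogenes, SNRPGP10, SNRPGP15 and SNRPGP2 were lower in IM-DSF as the gene was, for example SNRPGP10 with 17.5 FPKM in IM-DSF, 44.7 in IM, 45.3 in DSF and 62.8 in CTR. SNRPGP14 had 2.57 FPKM in IM-DSF, 1.44 in IM, 0.621 in DSF and 0.944 in CTR. Over its 219 exon bases these low values rest on few fragments, and no counting interval was calculated, so its direction is uncertain. For SNRPF, SNRPD2 and SNRPC the pseudogene share did not exceed 2.17% in any library.

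The SR proteins had the class median nearest to 0 in IM-DSF against CTR. Of 11 expressed genes, none was called lower in any comparison. Among all genes, 2.81% (DSF against CTR) to 10.4% (IM-DSF against CTR) were called lower, so 0 of 11 is near these shares. SRSF11, an SR-related protein (ENSG00000116754; chromosome 1, 70205682 to 70253052), had 28.0 FPKM in IM-DSF, 23.0 in IM, 18.0 in DSF and 19.2 in CTR. It was the 1 splicing gene called higher in IM-DSF against CTR, at 1.46 times (1.38 to 1.54). The SRSF11 log2 difference, IM-DSF against CTR, was 0.5231, just past the threshold of 0.5, and the call ended when libraries were scaled by a trimmed mean (0.4957) or by a median of ratios (0.4985). For SRSF11, IM-DSF was also 1.56 times DSF (1.47 to 1.65); an antisense gene, AL353771.1, overlaps it. SRSF6, the most abundant SR gene, had 94.8 FPKM in IM-DSF, 84.2 in IM, 83.1 in DSF and 81.2 in CTR. SRSF2, an enhancer-binding protein mutated in myeloid neoplasms, had 11.7 FPKM in IM-DSF, 11.9 in IM, 9.59 in DSF and 9.53 in CTR, so that both IM libraries were above the 2 without IM. SRSF1, the founding SR protein, had the lowest difference of the class in IM-DSF against CTR (-0.26), with 37.9 FPKM in IM-DSF, 41.5 in IM, 45.3 in DSF and 45.5 in CTR. SRSF2 and SRSF1 overlap MIR636 and AC015813.2 on their strands.

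The design measures the effect of IM in 2 pairs of libraries that share none, IM against CTR in the absence of DSF, and IM-DSF against DSF in its presence. In both pairs 47 of the 85 genes were lower with IM (55.3%, against 33.0% of all genes), 15 were higher in both and 23 had opposite signs. Of all 11004 genes, 4162 were higher in both and 3204 had opposite signs. SNRPG, SNRPF and HNRNPAB, 3 of the 85, were called lower in both, beside 200 of the 11004 genes. SNRPG differed by -0.51 in IM against CTR and by -1.08 in IM-DSF against DSF, SNRPF by -0.56 and -0.78, and HNRNPAB by -0.52 and -0.71. The 85 values of the pairs correlated at a Pearson r of 0.45 and a Spearman rho of 0.62, as a description across genes that are not independent replicates; for all genes these were 0.43 and 0.53.

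**Figure D5:**
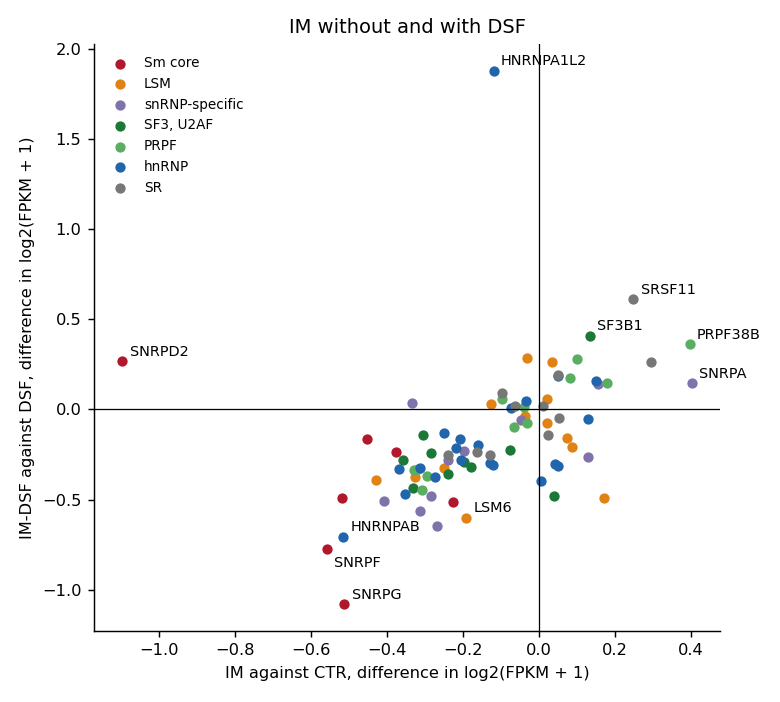
Each point is 1 of the 85 splicing genes, coloured by role; the horizontal axis is the difference in log2(FPKM + 1) of IM against CTR and the vertical axis that of IM-DSF against DSF. SNRPG, SNRPF and HNRNPAB lie below -0.5 on both axes, SNRPD2 is at -1.10 and 0.27, and HNRNPA1L2 is at -0.12 and 1.88.

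The effect of DSF is likewise measured in DSF against CTR and in IM-DSF against IM. Again 47 genes were lower with DSF in both pairs (55.3%, against 27.7% of all genes), 11 were higher in both and 27 had opposite signs. Of all 11004 genes, 3022 were higher in both and 4924 had opposite signs. No splicing gene was called lower in both, beside 55 of the 11004 genes. A count of 0 of 85 is near that share. The 4 genes called lower in IM-DSF against IM, SNRPG, LSM7, HNRNPC and LSM6, differed by -0.24, 0.03, -0.17 and -0.13 in DSF against CTR in that order of genes.

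The departure from additivity subtracts the IM and DSF differences (each from CTR) from that of IM-DSF. It had a median of -0.04 over the 85 genes and -0.01 over all genes. It was at least 0.5 log2 unit above 0 for HNRNPA1L2 (1.997) and SNRPD2 (1.37), beside 5.45% of all genes. It was as far below 0 for LSM7 (-0.66), SNRPG (-0.57) and SF3A2 (-0.52), beside 7.69%. All of these departures use all 4 libraries, and that of HNRNPA1L2 rests on the low DSF library and that of SNRPD2 on the high CTR library.

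Promoter sequence from RefSeq (GRCh38.p14) was found for 73 of the 85 genes, as windows of the 250 bases before a transcription start. The windows were searched on both strands for 5 motifs, chosen after the expression values were seen. An ETS motif, the element that ETS-family transcription factors recognise in many promoters of housekeeping genes, was searched as CCGGAAG. An E-box, which basic helix-loop-helix factors such as MYC recognise, was searched as CACGTG. The GC box, the element recognised by the SP family of factors near many start sites, was searched as GGGCGG. The TATA box, where the general transcription machinery binds in a minority of promoters, was searched as TATAAA. The fifth motif, bound by the NF-Y complex, was searched by the 5 letters of its name, CCAAT. The ETS letters were in 25 of the 73 genes (34.2%), against 21.9% of 7624 expressed protein-coding genes with a window. They were in 7 of 9 SF3 and U2AF genes, 5 of 10 particle-specific genes and 4 of 6 Sm core genes, but in 3 of 20 hnRNP genes. CCAAT was in 37 of the 73 (50.7%, against 42.0%), in 16 of 20 hnRNP genes, 1 of 9 SF3 and U2AF genes and 2 of 10 SR genes. The GC box was in 47 of the 73 (64.4%, against 75.9%) and the TATA letters in 7 (9.59%, against 7.08%). The E-box letters were in 8 of the 73 (10.96%, against 12.1%), 6 of them hnRNP genes. A match describes letters and is neither a bound site nor a cause.

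In IM-DSF against CTR the 25 genes with ETS letters had a median of -0.34 and the 48 without them -0.25. The 8 genes with E-box letters had a median of -0.02 and the 65 without them -0.31. The medians were -0.31 for the 37 genes with CCAAT and -0.25 for the 36 without it, -0.27 for the 47 with a GC box and -0.31 for the 26 without it, and -0.19 for the 7 with TATA letters and -0.29 for the 66 without them. The promoters of SNRPF and HNRNPAB, which were lower in both measures of IM, and of SF3B1 and SRSF11, with higher values in IM-DSF, are printed because their RefSeq start lies within 30 bases of the deposited one. They run 5′ to 3′ on the gene's strand up to the base before the start, and capitals mark the matches.
SNRPF: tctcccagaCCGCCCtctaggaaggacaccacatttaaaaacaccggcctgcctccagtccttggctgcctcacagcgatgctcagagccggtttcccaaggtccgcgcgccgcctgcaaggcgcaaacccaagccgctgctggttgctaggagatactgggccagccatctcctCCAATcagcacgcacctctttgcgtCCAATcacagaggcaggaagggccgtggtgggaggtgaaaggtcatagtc
HNRNPAB: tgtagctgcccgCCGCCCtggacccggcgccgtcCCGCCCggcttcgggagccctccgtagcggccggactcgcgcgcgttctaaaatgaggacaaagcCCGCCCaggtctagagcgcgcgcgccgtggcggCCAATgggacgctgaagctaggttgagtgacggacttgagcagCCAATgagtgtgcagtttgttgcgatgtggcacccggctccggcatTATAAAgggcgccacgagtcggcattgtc
SF3B1: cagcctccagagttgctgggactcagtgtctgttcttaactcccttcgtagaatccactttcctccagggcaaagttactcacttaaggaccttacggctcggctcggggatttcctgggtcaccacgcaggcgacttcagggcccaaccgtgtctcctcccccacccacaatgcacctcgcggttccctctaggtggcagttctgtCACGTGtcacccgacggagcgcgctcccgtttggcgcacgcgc
SRSF11: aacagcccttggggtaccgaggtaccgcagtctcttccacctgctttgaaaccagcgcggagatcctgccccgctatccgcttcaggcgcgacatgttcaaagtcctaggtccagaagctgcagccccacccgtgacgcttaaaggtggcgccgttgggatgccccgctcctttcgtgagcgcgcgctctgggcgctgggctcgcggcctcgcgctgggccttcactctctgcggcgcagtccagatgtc

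The SNRPF window (chr12:95858702-95858951, plus strand) holds CCAAT at -75 and -50 and a GC box at -241, counted from the start. The HNRNPAB window (chr5:178204283-178204532, plus strand) holds 3 GC boxes, CCAAT at -118 and -75 and TATA letters at -29. The SF3B1 window (chr2:197435094-197435343, minus strand) holds an E-box at -43, and the SRSF11 window (chr1:70205446-70205695, plus strand) holds none of the 5 motifs. Another RefSeq window of SRSF11, not printed, holds TATA letters, and SRSF11 is counted with them above.

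Other genes of the same machinery, outside the naming rule, were read in the same way. Of 40 further core spliceosome proteins, 33 were below CTR in IM-DSF with a median of -0.22 and 4 were called lower, PHF5A, SART3, CTNNBL1 and ISY1, near the 10.4% called lower among all genes. PHF5A, an SF3b subunit, had 27.0 FPKM in IM-DSF, 32.4 in IM, 37.2 in DSF and 45.3 in CTR. SLU7, a factor of the second catalytic step, was at the other end with 12.3 FPKM in IM-DSF, 11.5 in IM, 8.52 in DSF and 8.44 in CTR, a difference of 0.49. In IM against CTR 35 of the 40 were below CTR and none was called, beside 5.67% of all genes called lower and 9.38% called higher.

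A further list holds the proteins that assemble and import snRNPs. Of 19 such genes, 16 were below CTR in IM-DSF (median -0.26). GEMIN5 and PRMT5 were called lower in both IM and IM-DSF. These 2 calls of 19 genes are near the 10.4% of all genes called lower in IM-DSF, and in IM the share of all genes was 5.67%. GEMIN5, which delivers small RNAs to the SMN complex, had 8.08 FPKM in IM-DSF, 9.05 in IM, 13.3 in DSF and 16.04 in CTR. PRMT5, which methylates arginines of Sm proteins before assembly, had 8.21 FPKM in IM-DSF, 7.79 in IM, 10.1 in DSF and 12.5 in CTR. Both IM libraries were below DSF and CTR for each of these genes. SMN1 and SMN2, near-identical copies, had at most 2.62 FPKM each. The highest differences of this list were uncalled, 0.33 for GEMIN8, an SMN complex subunit, in IM and 0.31 for NCBP2, a cap-binding subunit, in IM-DSF.

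The exon junction complex is laid down upstream of joined exons. Of its 6 genes, 2 were lower by more than 1 log2 unit in IM-DSF against CTR, beside 1.74% of all genes. RBM8A had 9.33 FPKM in IM-DSF, 10.3 in IM, 13.0 in DSF and 21.7 in CTR, and MAGOH, which binds it, had 19.6 FPKM in IM-DSF, 31.8 in IM, 34.3 in DSF and 42.1 in CTR. RBM8A overlaps another gene on its strand, so its value is uncertain. CASC3, another subunit of the complex, was at the high end, with 7.93 FPKM in IM-DSF, 8.63 in IM, 7.21 in DSF and 7.52 in CTR.

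Regulators outside the SR and hnRNP families had a median nearer to 0 than the core proteins. Of 28 such genes, 3 were called higher in IM-DSF against CTR, near the 12.2% of all genes. None was called lower, beside 10.4% of all genes, and the median was -0.09. TIA1, which binds uridine-rich RNA near 5′ splice sites, had 14.2 FPKM in IM-DSF, 12.3 in IM, 8.60 in DSF and 8.42 in CTR; it overlaps C2orf42. The lowest regulators were RBMX, an hnRNP relative, in IM against CTR (-0.37) and TAF15, an RNA-binding protein, in IM-DSF against CTR (-0.48), both with overlapping genes and neither called. Of 7 kinases of SR proteins, CLK1 and CLK4 were called higher in IM-DSF, beside 12.2% of all genes. CLK1 had 13.5 FPKM in IM-DSF, 13.8 in IM, 10.1 in DSF and 8.13 in CTR, and SRPK1 had the lowest difference of the kinases in IM-DSF (-0.28).

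Among 6 further proteins of the minor spliceosome, RNPC3 and SCNM1 were called higher in IM-DSF (12.2% of all genes) and none lower (10.4%). RNPC3, which binds the small RNA of the U11/U12 particle, had 5.96 FPKM in IM-DSF, 4.53 in IM, 3.51 in DSF and 2.79 in CTR, and it overlaps AMY2B on its strand. ZMAT5, another protein of that particle, had the lowest difference of the 6 in IM-DSF (-0.01). Among 7 decapping and decay partners of LSM1 to LSM7, DCP2 and XRN1 were called higher in IM-DSF, beside 12.2% of all genes. DCP2, the decapping enzyme, had 8.23 FPKM in IM-DSF, 7.86 in IM, 6.05 in DSF and 1.89 in CTR, so that CTR alone was low. XRN1, the exonuclease that follows it, had 7.07 FPKM in IM-DSF, 5.56 in IM, 4.79 in DSF and 4.64 in CTR. DCP1A, a cofactor of DCP2, had the lowest difference of the 7 in IM-DSF (-0.18). All of these lists are described by their counts beside the shares of all genes, and whether any list stands apart was not tested.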

How the data were processed

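The authors deposited 1 table of FPKM for 50868 genes in 4 libraries, with a value column per sample per the file headers. Per the submitters' processing notes, HISAT2 2.0.4 and GRCh38.p14 were used. The labels name a stranded mRNA kit; no counter, annotation release or use of strand in counting is given in the sources used here. Differences are of log2(FPKM + 1), which understates changes of low genes, for genes that averaged 1 FPKM or more. GENCODE 29, which matched 50111 identifiers, gave exon lengths, biotypes and overlaps; 21 of the 85 genes overlap another gene on the same strand and 29 only on the opposite one, and reads of such genes may be misassigned.

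Per library, FPKM times exon length in single-exon genes was a whole multiple of 1 step, within 0.05, for 96.2 to 96.7% of genes. This gave the denominators and the approximate fragment numbers behind the intervals (exact conditional binomial on the ratio of FPKM values); PCR copies make them too narrow. With 1 library per group no test was run. Open reading frames are the longest in a GENCODE transcript.

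The genes, lists and motifs were chosen with earlier results of these data known. Named genes are those past 1 log2 unit in any comparison, the 4 highest and 4 lowest per comparison with a mean of at least 5 FPKM, the highest, lowest and most abundant per role, the 3 most extreme departures per direction, and the extremes of each further list; others named were chosen after their values were seen. Alternatives were another pseudocount, other filters, other scalings, summing with pseudogenes, and leaving out overlapped genes. Python 3.11.15, numpy 2.4.6, pandas 2.3.3 and scipy 1.17.1 were used.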

Additional observations from a re-analysis of the deposited data

Results flagged for a closer look

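SNRPD2 had opposite directions in the library pairs that measure the same agent. It was lower with DSF in the absence of IM (-1.04 log2 units, DSF against CTR) and higher with DSF in its presence (0.32, IM-DSF against IM). With IM it was lower in the absence of DSF (-1.10, IM against CTR) and higher in its presence (0.27, IM-DSF against DSF). The difference between these effects was not tested, since each rests on 1 library per group, and the comparisons against CTR share the CTR library, the highest of the 4 for this gene.

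Rows outside the rule also held signal. HNRNPA1P10, a pseudogene row of HNRNPA1, was 0.63 log2 unit higher in IM-DSF than in CTR, with 74.8 FPKM in IM-DSF, 41.6 in IM, 53.0 in DSF and 48.1 in CTR. HNRNPU-AS1, left out for its hyphen, was 1.03 log2 units higher in IM and 1.03 higher in IM-DSF than in CTR, with 63.3 FPKM in IM-DSF, 63.6 in IM, 40.7 in DSF and 30.6 in CTR. It lies beside HNRNPU without overlapping it in the deposited coordinates, and HNRNPU itself was lower in IM-DSF than in CTR by less than the call rule (-0.32).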

How the results depend on the processing

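The medians of the splicing genes stayed below 0 under all 8 alternatives in the 5 comparisons, between -0.28 and -0.20 for IM-DSF against CTR, between -0.18 and -0.10 for IM against CTR, between -0.09 and -0.04 for DSF against CTR and between -0.25 and -0.16 for IM-DSF against DSF. For IM-DSF against IM they lay between -0.115 and -0.047, the last after rescaling to TPM, against -0.094 as reported. The median departure from additivity was 0.05 after rescaling to TPM, against -0.04 as reported. Leaving out genes with same-strand overlap kept 64 genes. Calls past 0.5 log2 unit then numbered 1 in DSF against CTR and 5 in IM-DSF against DSF, and calls past 1 unit numbered 1 each in DSF against CTR, IM-DSF against CTR and IM-DSF against DSF; fewer genes were counted. Calls past 0.5 unit in IM-DSF against CTR ranged from 15 to 20, with 0 higher and 20 lower under median-of-ratios or trimmed-mean factors against 1 higher and 18 lower as reported. Of 1270 recomputed values of named genes, 1242 stayed within their counting interval and 28 moved past it, mostly by summing with pseudogenes (HNRNPA1, LSM12 and SNRPE) or by rescaling the deeply covered HNRNPU and SF3B1; none that was called changed sign. No paired analysis was possible because each group has 1 library. Depth limits low genes most: the interval of LSM12, IM-DSF to CTR, was 1.01 to 1.79.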
